A study of Mus musculus with 2 samples.

Results

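The C-type lectin receptor genes described here are Clec4a1, Clec4a2, Clec4a3, Clec4d, Clec4n, Clec7a, Clec10a and Clec12a, a list of 8 genes chosen by name. The list was made with earlier results of these data known, so counts of members set beside all genes are a description only. Of the 8, 7 had a row in the gene tables of 27998 genes and were measured in both libraries. Clec7a (Dectin-1) had no row and was not analysed here. Single-cell RNA sequencing in droplets was applied to macrophages from the small intestine of mice, giving 1 library from wild-type (WT) and 1 from Ccr2-/- animals. Janvier supplied the WT mice, which were C57BL/6J males, and the Ccr2-/- animals were JAX strain 004999 bred in-house, so genotype and source cannot be told apart. For each library 3 to 4 intestines were pooled after the epithelium had been stripped and the tissue digested with Liberase TL. Live CD45+ cells were sorted as CD11b+, MHCII+ and CD64+ and negative for CD3, TCRb, B220, SiglecF, Ly6C and Ly6G, so Ly6C+ monocytes were gated out of both libraries.

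Myeloid C-type lectin receptors bind sugars and other ligands on microbes, dying cells and self glycoproteins through a lectin-like domain outside the cell. Some activate the cell, either through their own tail or through the adaptor Fc receptor gamma chain (Fcer1g), the kinase Syk and the scaffold Card9. Others carry an inhibitory motif that recruits the phosphatases Ptpn6 and Ptpn11. Ccr2 is the chemokine receptor with which monocytes leave the bone marrow and enter tissue, and Timd4 is a phosphatidylserine receptor used as a marker of long-lived gut macrophages.

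Most of the listed genes lie in the same cluster, with other C-type lectin genes between some of them. On chromosome 6 (GRCm38, GENCODE M21) a cluster of 9 C-type lectin genes runs over 368 kb, from 122921848 to 123289870, and holds 5 of the members, all on the plus strand. In order these are Clec4a1 (ENSMUSG00000049037, 122921848 to 122934619), Clec4a3 (ENSMUSG00000043832, 122952515 to 122969875), Clec4a2 (ENSMUSG00000030148, 123106428 to 123143999), Clec4n (ENSMUSG00000023349, 123229843 to 123247021) and Clec4d (ENSMUSG00000030144, 123262111 to 123275265). Clec12a (ENSMUSG00000053063) lies farther along the same chromosome, from 129342691 to 129365303 on the plus strand. Clec10a (ENSMUSG00000000318) is on chromosome 11, from 70156197 to 70170834 on the plus strand. All 7 are annotated as protein-coding.

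The sequences upstream of Clec4a1 and Clec4a3 are shown because these neighbours in the cluster went opposite ways over the Ccr2 classes described below. A shorter stretch is shown for Clec12a, the member with the widest range of levels. The letters come from the RefSeq promoter table (GRCm38.p6), in which 6 of the 8 genes had an entry and Clec4n and Clec10a did not. Each full window is the 200 bases before a RefSeq start site. Capitals mark GAGGAA on either strand, the core letters of sites for the macrophage factor PU.1.

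Clec4a1 (chr6:122921648-122921847, plus strand): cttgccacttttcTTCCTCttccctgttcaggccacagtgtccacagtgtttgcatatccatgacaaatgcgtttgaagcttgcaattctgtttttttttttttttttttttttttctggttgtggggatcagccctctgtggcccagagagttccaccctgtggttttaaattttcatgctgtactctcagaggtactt
Clec4a3 (chr6:122952315-122952514, plus strand): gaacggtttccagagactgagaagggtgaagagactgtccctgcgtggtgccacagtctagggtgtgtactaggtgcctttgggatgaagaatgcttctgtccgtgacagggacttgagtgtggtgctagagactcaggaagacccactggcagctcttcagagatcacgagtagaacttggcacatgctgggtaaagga
Clec12a (chr6:129350183-129350202, plus strand): GAGGAAgaaaagtgTTCCTC

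The Clec12a stretch of 20 bases begins 61 bases before the RefSeq start and holds 1 match on each strand. It lies in a stretch that GENCODE M21 annotates as an untranslated exon of a longer transcript, so the full window is not printed. The Clec4a1 window held 1 match and the Clec4a3 window shown held none, while a window before another RefSeq start of Clec4a3 held 1. Among 32851 RefSeq windows of the same length, 6250 (19.0%) held GAGGAA on either strand. The AP-1 letters TGANTCA, searched on both strands, were in 5.48% of all windows and in none of the members' windows. A match is a description of the letters, and the lack of one says only that they are not in that window.

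After filtering, 3016 WT cells with a median of 6129 UMIs (unique molecular identifiers, 1 per captured transcript end) and 2612 knockout cells with a median of 2439 UMIs remained. The WT cells came from 2 lanes, with medians of 6185 and 6034 UMIs, and the lanes shared 5 barcode sequences. The libraries shared 6. Ccr2 had 6844 UMIs in WT and 50 in the knockout, or 331 and 6.88 CPM (UMIs per 1000000) respectively, so the library labelled Ccr2-/- held little Ccr2 RNA. The macrophage gate kept 93.2% of WT and 82.5% of knockout cells. It asked for at least 4 of 8 macrophage markers, and for fewer than 3 markers each of lymphoid, epithelial, fibroblast and endothelial cells. The libraries differed in more than genotype. All 10 early response genes were at least 2-fold higher in the knockout (median log2 ratio 1.82), and summed fibroblast markers (6 of 6 genes) were at 27.9 CPM in WT and 245 CPM in the knockout. Summed erythroid markers were at 761 and 7429 CPM (1078 and 3.44 CPM in the WT lanes), endothelial markers at 53.8 and 205 CPM, and resident macrophage markers at 603 and 1508 CPM, WT first. The 6 neutrophil markers summed to 404 and 604 CPM, nearly all of it Mmp9 (369 and 559 CPM) and Csf3r (33.6 and 41.6 CPM), with S100a8 and S100a9 at 0 in both. Since each genotype had 1 library, genotypes could not be tested against each other, and all intervals cover counting error only. Differences between the lanes are a technical yardstick and not a replicate, and pooling hides the spread between animals.

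Between the libraries, Clec12a was the only member that differed by 2-fold or more, and it was lower in the knockout. With a pseudocount of 10 CPM its log2 ratio was -0.83 and no member passed 2-fold. Clec4a3 and Clec4a2, genes of the DCIR group in the cluster, were lower by less than 2-fold. Clec4a1, Clec4n, Clec10a and Clec4d lay within 0.25 of 0 on the log2 scale. Of the 7 measured genes, 1 was at least 2-fold lower and 0 at least 2-fold higher, against 3.12% and 9.04% of 7401 genes with a mean of at least 10 CPM. The median log2 ratio was -1.6e-05 over the members and 0.18 over all genes. Median-of-ratios scaling moved the median of all genes to -0.11, and the whole-table counts turned from 231 lower and 669 higher to 675 lower and 359 higher. Directions near 0 therefore depend on the scaling.

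**Figure D1:**
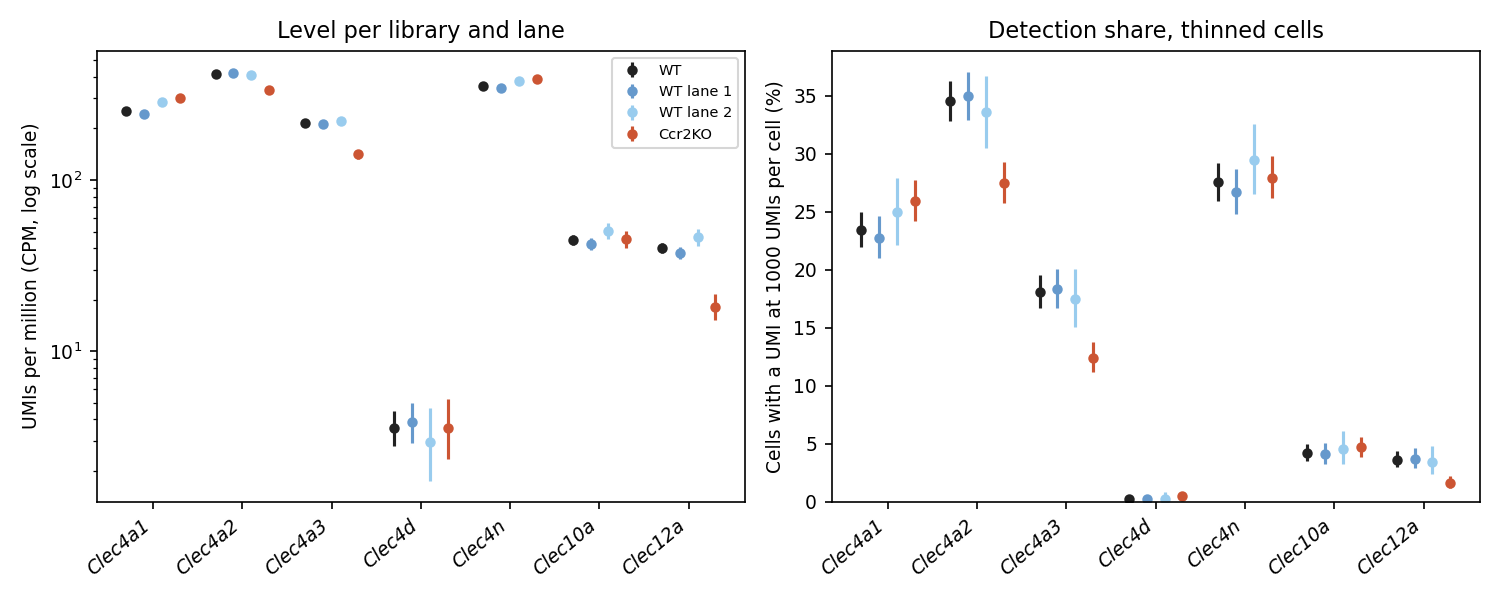
Levels of the 7 measured genes. Left, UMIs per 1000000 (CPM, log axis) in the WT library, each WT lane and the Ccr2-/- library (Ccr2KO), with 95% Poisson intervals. Right, percent of cells with a UMI after every cell was thinned to 1000 UMIs, with 95% Clopper-Pearson intervals. The knockout points of Clec4a2, Clec4a3 and Clec12a lie below all WT points, and those of the other genes overlap or exceed them.

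Of the inhibitory receptors, Clec12a (MICL), which carries an inhibitory motif and recognises uric acid crystals from dead cells, was at 40.2 CPM in WT (95% Poisson interval 37.5 to 43.0 CPM). Its lanes had 37.6 and 46.3 CPM, and the knockout had 18.2 CPM (15.2 to 21.5 CPM). The knockout was below both lanes and their counting intervals. With the pseudocount of 1 CPM it was 2.15-fold below the WT library as a whole, a log2 ratio of -1.10. The lanes differed from each other by 0.29, and the ratio of the knockout was -1.01 to lane 1 and -1.30 to lane 2. At equal depth 3.62% of WT cells (2.98% to 4.34%) and 1.61% of knockout cells (1.15% to 2.20%) had a Clec12a UMI. Before thinning, these shares were 14.8% and 3.64%. Summed monocyte markers, 10 of 10 detected in both libraries, were at 442 CPM in WT and 238 CPM in the knockout. Much of both sums was Plac8 (236 and 113 CPM). Of the 5 monocyte markers with a mean of at least 10 CPM, 4 were lower in the knockout. The other, Fn1, was higher there (4.88 CPM in WT and 18.9 CPM in the knockout). The part of these markers in the Clec12a result was not tested.

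Clec4a2 (DCIR) also carries an inhibitory motif and had the highest level of the members in WT, 418 CPM (409 to 427 CPM). Its lanes had 421 and 411 CPM, and the knockout had 335 CPM (322 to 348 CPM), below both lanes. The log2 ratio was -0.32, against -0.03 between the lanes. The thinned share was 34.5% in WT and 27.5% in the knockout, and the intervals of these shares did not overlap.

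Clec4a3 (DCIR3) was at 215 CPM in WT (209 to 221 CPM), with 212 and 222 CPM in the lanes, and at 142 CPM in the knockout (133 to 151 CPM). The log2 ratio was -0.60, a 1.51-fold lower level, against 0.07 between the lanes. Its thinned share was 18.1% in WT and 12.4% in the knockout, again with intervals apart. Clec4a1 (DCIR4), which lies next to Clec4a3, was instead at 254 CPM in WT (247 to 261 CPM) and reached 301 CPM in Ccr2-/- cells (289 to 314 CPM). The lanes had 241 and 285 CPM, so the knockout exceeded both, and its log2 ratio of 0.24 to WT was about the size of the ratio between the lanes, also 0.24. With median-of-ratios scaling the ratio of Clec4a1 became -0.07, and in cells of 2000 to 4000 UMIs it was -0.06.

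Among the activating receptors, Clec4n (Dectin-2), which binds fungal mannans and signals through Fcer1g, was at 355 CPM in WT (347 to 363 CPM). The lanes had 345 and 378 CPM and the knockout 390 CPM (375 to 404 CPM). The log2 ratio of 0.14 was close to the lane difference of 0.13, and it became -0.17 with median-of-ratios scaling. The thinned shares, 27.5% and 27.9%, overlapped in their intervals. Clec4d (MCL), a partner of Dectin-2, was near the limit of detection in both libraries. It had 74 UMIs in WT and 26 in the knockout, or 3.58 CPM in each (2.81 to 4.49 and 2.34 to 5.24 CPM), so a difference was not detectable at this depth.

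Clec10a (MGL1) is a galactose-type lectin of macrophages and dendritic cells. It was at 44.6 CPM in WT (41.8 to 47.6 CPM), with 42.2 and 50.4 CPM in the lanes, and at 45.01 CPM in the knockout (40.3 to 50.2 CPM). The knockout lay between the lanes, with a log2 ratio of 0.01 that became -0.29 with median-of-ratios scaling. The thinned shares were 4.21% and 4.68%.

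Over the 7 genes the thinned share was lower in the knockout for 3 and higher for 4, and the intervals were apart for Clec4a2, Clec4a3 and Clec12a. Without thinning all 7 shares were lower in the knockout, whose cells were shallower. In WT the order of levels was Clec4a2, Clec4n, Clec4a1, Clec4a3, Clec10a, Clec12a and Clec4d. The intervals of Clec10a and Clec12a overlapped, and those of the other neighbours did not. In the knockout Clec4n stood above Clec4a2, and Clec12a was 132 UMIs in all. These are counts of transcript ends, so no division by length was made, but capture can differ between genes.

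As a background for the shares, cells gated on lymphoid markers were thinned to the same depth, 29 from WT with a median of 7559 UMIs and 40 from the knockout with a median of 2280 UMIs. Macrophage-gated cells had medians of 6076 and 2751 UMIs. Clec4n was found in 13.8% of the lymphoid-gated WT cells and 7.5% of those from the knockout, against 27.8% and 29.4% of macrophage-gated cells. The lymphoid-gated WT share rested on 4 of 29 cells, with bounds of 3.89% to 31.7% that hold the 27.8%. Clec4n in WT was therefore not separated from background by its share. In the knockout the upper bound was 20.4%. Clec4a2 was found in 3.45% and 5%, against 35.0% and 28.1%. Clec4a1 was found in 0% and 2.5%, against 23.9% and 26.9%, and Clec4a3 in 3.45% and 0%, against 18.2% and 13.1%. Clec12a was found in 0 of 29 cells (upper 95% bound 11.9%) and in 1 of 40 cells (2.5%), against 3.66% and 1.60% of macrophage-gated cells. Its level summed over the lymphoid-gated cells before thinning was 8.29 and 7.92 CPM, from so few cells that these levels are rough. Both Clec12a shares lie within the bounds that so few lymphoid-gated cells allow (up to 11.9% and 13.2%), so neither was separated from background by its share. After thinning, Clec10a and Clec4d were in none of the lymphoid-gated cells, for which 0 of 40 allows up to 8.81%. Before thinning, Clec10a was at 4.14 CPM in the lymphoid-gated WT cells.

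Within WT, the members were followed over cells with 0, 1 to 2, 3 to 9 and 10 or more Ccr2 UMIs. Clec12a and Clec10a were highest where Ccr2 was highest, Clec4n was lowest there, and Clec4a2 was level. Of the 7 genes, 3 were higher at each of the 3 steps and 2 were lower at each step, against 9.13% and 18.7% of 7063 genes. In the top class against class 0, 2 members were at least 2-fold higher and 2 at least 2-fold lower, against 1.56% and 5.44% of those genes. Clec4d, 1 of the 2 lower ones, is under the 10 CPM that those genes meet, and of the 6 members that meet it 1 was lower. The median log2 ratio of top class to class 0 was 0.02 over the members and -0.14 over all genes. The classes held 1692, 490, 620 and 214 cells, and their median depth went up from 5303 to 10085 UMIs.

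Clec12a had 9.57, 29.9, 66.3 and 127 CPM from class 0 to the top class, with intervals of 7.74 to 11.7 CPM at the bottom and 113 to 142 CPM at the top. The class 0 interval holds the 8.29 CPM of the few lymphoid-gated WT cells, so the base of the range was not separated from background. With the pseudocount of 1 CPM the range was 12.1-fold, a log2 ratio of 3.59, with 3.72 in lane 1 and 3.35 in lane 2. None of the 4 intervals overlapped, and both lanes had the same order of classes. Clec10a had 27.6, 41.1, 63.6 and 79.9 CPM, a 2.83-fold range with the same pseudocount, and also had the same order in both lanes. Clec4a3 went from 195 through 214 and 233 to 259 CPM, a smaller log2 ratio of 0.41.

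Clec4n went the other way, with 514, 311, 177 and 129 CPM, a 3.96-fold range with the same pseudocount and a log2 ratio of -1.99. In lane 1 it was lower at each step, and in lane 2 the last step went from 159 to 165 CPM, within the counting intervals. Clec4a1 had 275, 288, 229 and 174 CPM, a log2 ratio of -0.66 without a step down at the start. Clec4a2 stayed between 402 and 426 CPM, with a log2 ratio of 0.02. Clec4d, the other gene lower at each step, rested on 48, 12, 13 and 1 UMIs. Its level was 4.84 CPM (3.57 to 6.41 CPM) in class 0 and 0.427 CPM (0.0108 to 2.38 CPM) in the top class.

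**Figure D2:**
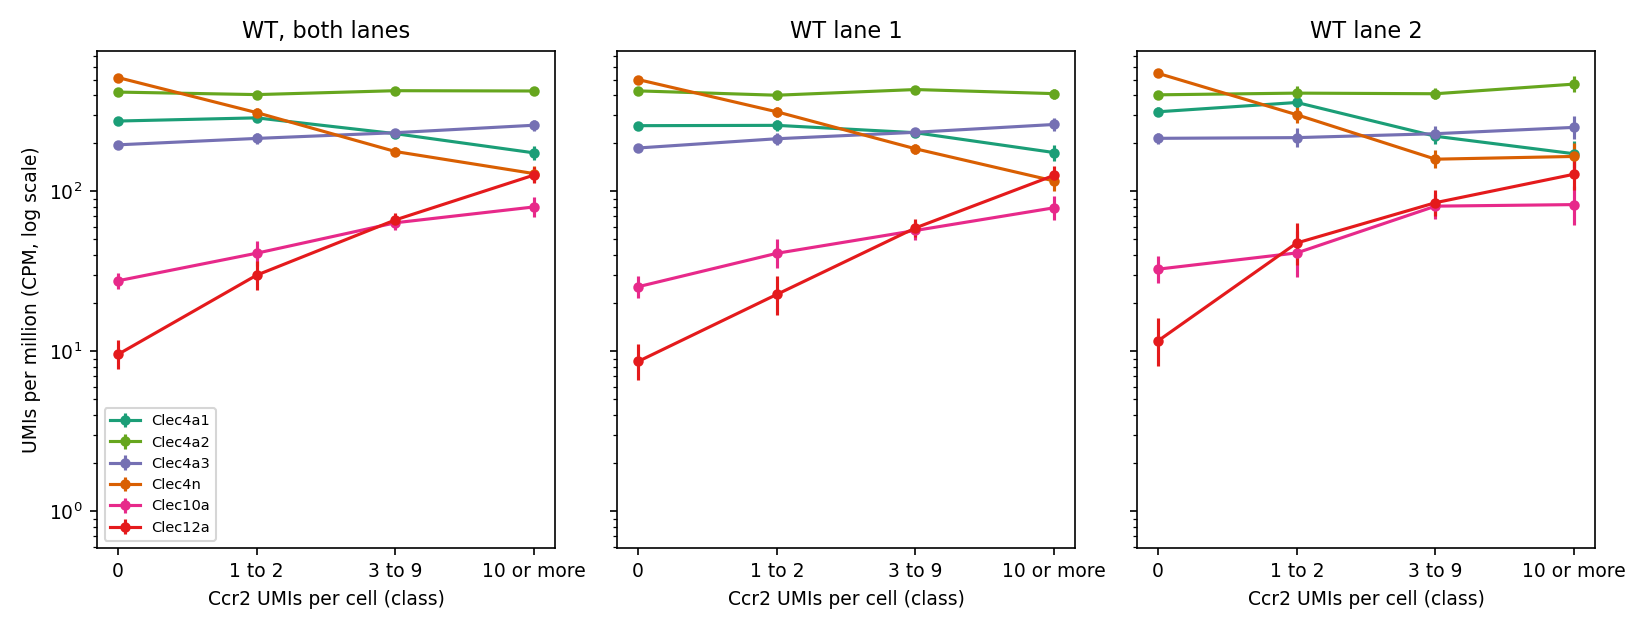
Levels of 6 members (CPM, log axis, 95% Poisson intervals) over WT cells grouped by their Ccr2 UMIs, for both lanes together and for each lane. Clec12a goes from 9.57 to 127 CPM and Clec4n from 514 to 129 CPM, while Clec4a2 stays between 402 and 426 CPM. Clec4d, with 74 UMIs in WT, is not drawn.

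Classes of Ccr2 UMIs also sort cells by depth. When cells were first thinned to 2000 UMIs and grouped by 0, 1, 2 and 3 or more Ccr2 UMIs, Clec12a had 16.8, 53.8, 90.7 and 140 CPM and Clec4n had 458, 211, 179 and 95.5 CPM. Clec12a was then the only member higher, and Clec4n the only one lower, at each step. Clec10a had 31.5, 79.5, 58.1 and 89.4 CPM, and Clec4a3 193, 237, 198 and 293 CPM, both highest in the top class. Other markers moved with the classes. Summed monocyte markers had 189, 362, 687 and 1080 CPM, with 10 of 10 genes detected in each class, and resident macrophage markers had 783, 572, 405 and 319 CPM, with 8 or 9 of 9 detected. Plasma cell markers had 2827, 2411, 342 and 279 CPM, with 6 of 6 genes detected. Their part in the trends was not tested. Dendritic cell markers had 90.4, 113, 98.6 and 135 CPM. Without cells that held a Cd209a, Flt3 or Zbtb46 UMI, a selection made after the data were seen, the log2 ratio was 3.64 for Clec12a and 1.23 for Clec10a.

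Timd4 detection divides cells of both libraries. Clec4n was higher and Clec12a lower in Timd4-detected cells of each library. Both contrasts were larger in WT with unthinned detection, made at unlike depth in the libraries. For Clec4n the WT contrast was smaller with detection from thinned cells, as given below, so a larger contrast in WT is not shown for it at equal depth. Clec10a was lower in Timd4-detected WT cells and not in those of the knockout. In WT, 0 members were at least 2-fold higher and 1 at least 2-fold lower, against 0.481% and 0.878% of 7063 genes. In the knockout 0 were past 2-fold in either direction, against 0.0132% higher and 1.76% lower of 7563 genes. There were 445 detected and 2571 undetected WT cells, with medians of 6154 and 6119 UMIs, and 815 and 1797 knockout cells, with medians of 3014 and 2189 UMIs.

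In WT Clec12a was at 13.3 CPM (9.61 to 18.02 CPM) in Timd4-detected and 45.01 CPM (41.9 to 48.3 CPM) in undetected cells, a log2 ratio of -1.68, with -1.70 and -1.63 in the lanes. In the knockout it was at 13.0 CPM (8.99 to 18.1 CPM) and 21.1 CPM (17.1 to 25.7 CPM), a log2 ratio of -0.66 with intervals that overlapped. Timd4-detected cells of both libraries thus had nearly the same Clec12a level, and the undetected cells differed. Ccr2 in the WT groups was at 102 and 372 CPM, and among WT cells with 0 Ccr2 UMIs the Clec12a contrast was -0.98.

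Other markers moved with the Timd4 groups. In WT, Timd4-detected against undetected, summed monocyte markers were at 198 and 485 CPM (8 and 10 of 10 genes detected), resident macrophage markers at 1002 and 531 CPM (8 of 9 in each) and plasma cell markers at 413 and 2111 CPM. In the knockout monocyte markers were at 120 and 305 CPM, resident markers at 1746 and 1373 CPM, plasma cell markers at 511 and 2868 CPM and fibroblast markers at 33.2 and 364 CPM. The resident list holds Timd4 itself, so part of its contrast was fixed by the grouping. In the knockout, Cd4 was higher in Timd4-detected cells (log2 ratio 0.36) and Vsig4 had no UMI. Lower there were Cd163 (-0.15), Folr2 (-0.34), Lyve1 (-0.49), Cbr2 (-1.18), Gas6 (-0.15) and Mrc1 (-0.14). In WT all of these genes but Vsig4 were higher in Timd4-detected cells. The part of the marker lists in the contrasts was not tested.

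Clec4n was at 571 CPM (545 to 598 CPM) in Timd4-detected and 316 CPM (307 to 324 CPM) in undetected WT cells, a log2 ratio of 0.85. The lanes had 0.79 and 1.001. In the knockout it was at 475 CPM (449 to 502 CPM) and 341 CPM (325 to 359 CPM), a log2 ratio of 0.48, so detected cells were higher in both libraries. Clec10a was at 29.2 and 47.4 CPM in WT, a log2 ratio of -0.68, and at 47.3 and 43.7 CPM in the knockout, a log2 ratio of 0.11 with overlapping intervals. Clec4a2 and Clec4a3 stayed within 0.14 of 0 in each library, but Clec4a3 had a log2 ratio of -0.50 in lane 2 alone. Clec4a1 had a log2 ratio of 0.25 in WT and -0.0041 in the knockout. Clec4d had 0.93 and 0.12, resting on 21 UMIs in Timd4-detected WT and 10 in Timd4-detected knockout cells, and its sign differed between the lanes. When Timd4 detection was taken from cells thinned to 1000 UMIs, the WT contrast of Clec10a was -0.03 and that of Clec4n 0.31, while that of Clec12a was -2.03.

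**Figure D3:**
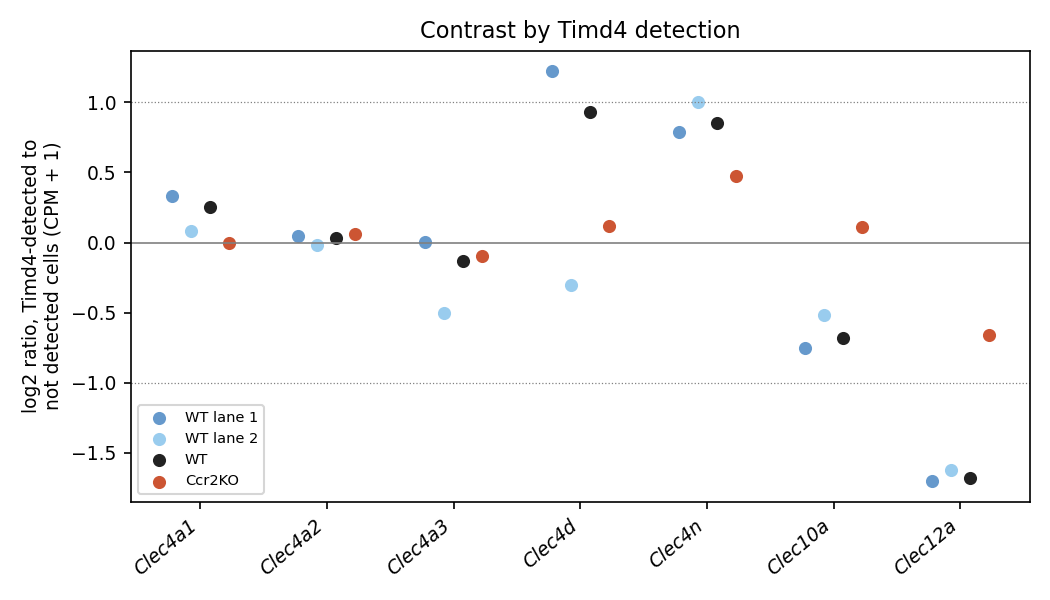
Log2 ratio of Timd4-detected to undetected cells (CPM + 1) for each member, in each WT lane, the WT library and the Ccr2-/- library (Ccr2KO). Clec4n is above 0 and Clec12a below 0 at all 4 points, with -1.68 for Clec12a in WT and -0.66 in the knockout. Dotted lines mark 2-fold.

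The libraries were then compared within groups of cells set by 1 transcript. Timd4 detection was taken at unlike depth, with medians of 6154 UMIs in detected WT and 3014 UMIs in detected knockout cells. In the comparison by Ccr2 only the WT cells were selected. Among Timd4-detected cells Clec12a had a log2 ratio of knockout to WT of -0.04, and among undetected cells -1.06. Against the 1692 WT cells without a Ccr2 UMI, whose median depth was 5303 UMIs, the whole knockout library had more Clec12a. It was 1.81-fold higher with the pseudocount of 1 CPM, a log2 ratio of 0.86, with 0.99 and 0.60 for the lanes. When all cells were first thinned to 1000 UMIs and then grouped, the ratio was -0.58, the other direction. Thinning also changed the WT group, since a Ccr2 UMI was found in 43.9% of WT cells before and 20.9% after it, and the cause of the turn was not tested.

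Clec10a had a log2 ratio of 0.68 among Timd4-detected cells, -0.12 among undetected cells and 0.69 against WT cells without a Ccr2 UMI. Clec4n had -0.26, 0.11 and -0.40 in the same comparisons. Its ratio among undetected cells became -0.12 with thinning and -0.22 with median-of-ratios scaling. Clec4a2 had -0.31, -0.34 and -0.32, and Clec4a3 had -0.55, -0.58 and -0.46, so these 2 genes had nearly one value in every comparison and in all cells. Against WT cells without a Ccr2 UMI, 0 members were past 2-fold, where 2.6% of 7426 genes were at least 2-fold lower and 7.31% at least 2-fold higher.

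**Figure D4:**
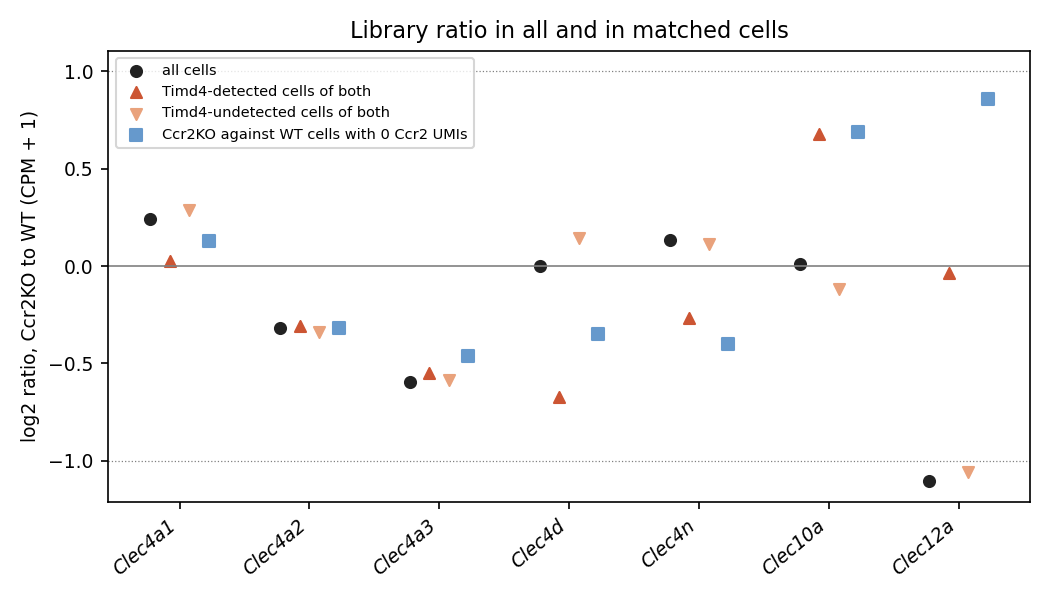
Log2 ratio of the knockout (Ccr2KO) to WT for each member in all cells, in Timd4-detected cells, in Timd4-undetected cells, and against WT cells with 0 Ccr2 UMIs. Clec4a2 and Clec4a3 have nearly one value in all 4 comparisons, while Clec12a runs from -1.10 in all cells to 0.86 against WT cells with 0 Ccr2 UMIs. Dotted lines mark 2-fold.

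After thinning to 1000 UMIs, 28.3% of WT and 33.0% of knockout cells had none of the 7 genes, and 31.1% and 26.7% had 2 or more. Pairs of members were counted in the same cell against the number that their shares alone would give. Of the 14 WT pairs with at least 5 cells expected, 9 were above and 5 below that number, and of 13 knockout pairs 8 were above and 5 below. Among these pairs Clec4n and Clec12a had the lowest ratio in each library, in 19 WT cells against 30.01 (0.63 times) and in 5 knockout cells against 10.9 (0.46 times). In WT lane 1 alone the lowest was Clec4n with Clec10a (0.70 times), with 0.72 times for Clec4n and Clec12a. Clec4n was also below 1 with Clec4a3 (0.80 and 0.89 times) and with Clec10a (0.74 and 0.82 times). Clec4a1 and Clec4a2, both in the cluster but not adjacent, were slightly above, at 1.14 times in each library. Clec4a3 and Clec12a met 1.42 times as often as their shares would give in WT. Clec4a1 and Clec10a met 0.87 times as often in WT and 1.53 times in the knockout, but the WT lanes lay on opposite sides of 1, at 1.07 and 0.49 times. These are counts over cells of 1 sample each and carry no test.

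**Figure D5:**
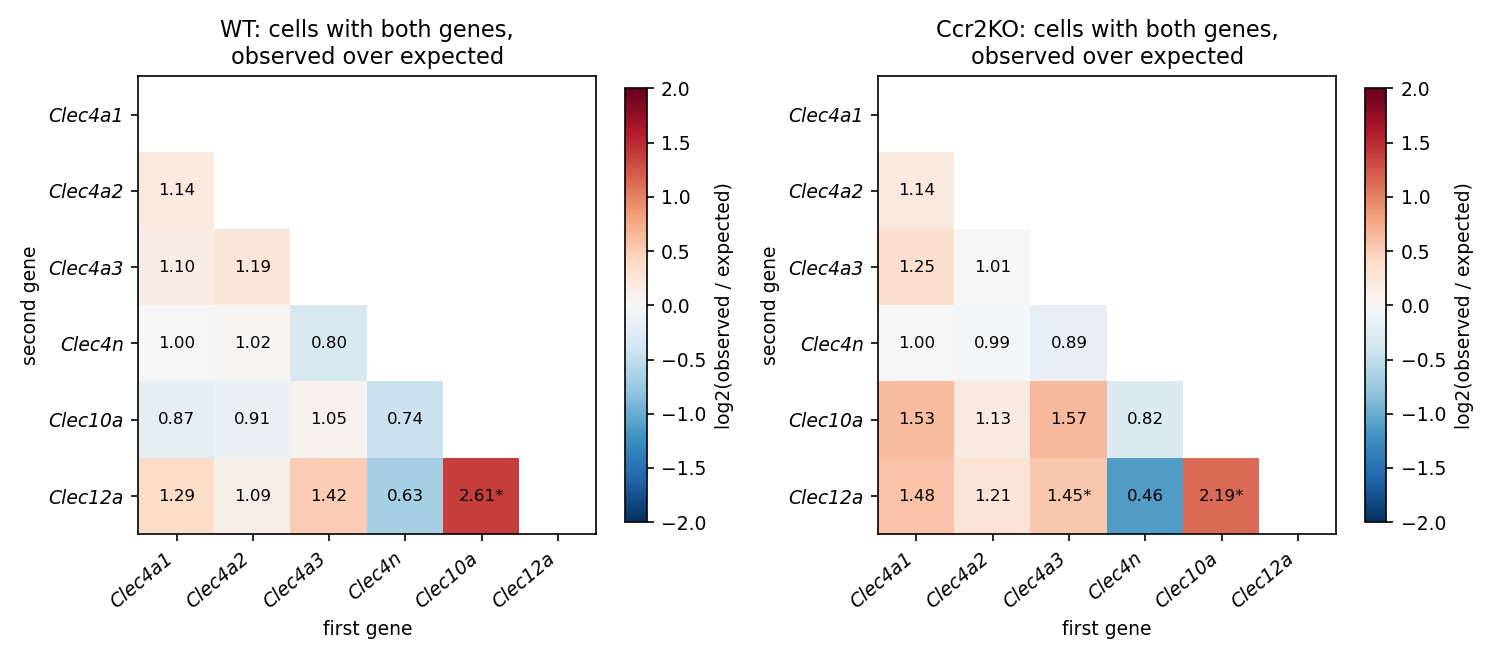
Cells with a UMI of both genes over the number expected from the share of each gene, in WT and Ccr2-/- (Ccr2KO) cells thinned to 1000 UMIs. Colours show log2 of the ratio, printed values are the ratio, and an asterisk marks fewer than 5 cells expected. Among pairs with at least 5 cells expected, Clec4n with Clec12a is lowest in both, at 0.63 and 0.46. Clec4d is not drawn.

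Over 10 groups of cells (4 Ccr2 classes in each WT lane and the Timd4-detected and undetected knockout cells), Clec4n and Clec12a had opposite profiles, with a Pearson r of -0.96, and Clec10a and Clec12a had like ones, with 0.91. The groups differ in depth and share libraries, so these values describe the profiles only. Among 7126 genes, those most like Clec12a were Rpl23a-ps3, Rps26 and Sema4a (r of 0.98, 0.97 and 0.97), and those most like Clec4n were Gpr171, Hist1h2bc and Zmynd15 (0.99, 0.98 and 0.98). Clec4a3 was nearest to H3f3a, Rpl10 and Naca (0.99, 0.99 and 0.98), and Clec4a1 to Itm2c, Tm2d1 and Sypl (0.97, 0.96 and 0.96). Clec4a2 was nearest to Psme3, Sugt1 and Smarcb1 (0.96, 0.95 and 0.95), and Clec10a to Gm9493, BC035044 and Gm10020 (0.96, 0.95 and 0.94).

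Of the 32 other C-type lectin genes, 13 had a mean of at least 10 CPM, of which 3 were at least 2-fold lower and 2 at least 2-fold higher in the knockout, against 3.12% and 9.04% of all genes. Their median log2 ratio was -0.15. Lowest were Cd209a, the mouse DC-SIGN homologue, with 40.4 CPM in WT and 9.91 CPM in the knockout (log2 ratio -1.92), and Clec4b1, the neighbour of Clec4a2 in the cluster, with 66.4 and 24.9 CPM (-1.38). Clec4b1 was also higher in the top Ccr2 class of WT than in class 0, by 1.87 on the log2 scale. Of the runs of 50 bases at its transcript ends, 18.8% are shared with Clec4a2, and the effect of this on the counts of both genes was not measured. Highest were Clec3b, a secreted lectin of stromal cells, with 2.80 and 17.9 CPM (2.31), and the mannose receptor Mrc1 with 341 and 698 CPM (1.03). The fibroblast markers given above moved with Clec3b, and their part was not tested.

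Of the 14 signalling genes, 13 had a mean of at least 10 CPM, of which 1 was at least 2-fold lower and 0 at least 2-fold higher, against the same 3.12% and 9.04%, with a median log2 ratio of 0.18. The adaptor genes were lowest. Fcer1g, which carries the signal of Clec4n and Clec4d, had 3472 CPM in WT and 1597 CPM in the knockout (log2 ratio -1.12), and the related adaptor Tyrobp had 2522 and 1438 CPM (-0.81). Inpp5d, a lipid phosphatase that limits signalling, had 132 and 264 CPM (0.999), and Bcl10, a partner of Card9, had 90.0 and 134 CPM (0.57).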

How the data were processed

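The authors deposited raw UMI counts, whole numbers for each gene in each cell. Cell Ranger 3.0.1 and mm10 are named in the submitters' processing notes, and the annotation is not given in the sources used here. Libraries were made with the single-cell 3′ v2 chemistry, per the labels. The members and the gene lists were chosen with earlier results of these data known.

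Cells were kept at 200 genes or more and 10% mitochondrial UMIs or less. Counts were summed per library, lane or group of cells and scaled to 1000000 (CPM). Ratios are log2 of CPM with a pseudocount of 1, and counts over all genes use those with a mean of at least 10 CPM. Fold sizes come from these ratios, so at low CPM they are smaller than the ratio of the printed levels. Shares of cells with a UMI were taken after thinning each cell to 1000 UMIs, which left out 1 WT and 196 knockout cells. Intervals are exact Poisson or Clopper-Pearson at 95% and cover counting error only. The lymphoid gate needed at least 3 T, B or plasma cell markers other than Xbp1. It also needed a summed macrophage marker share below the library median divided by 5. The macrophage gate needed at least 4 macrophage markers, and fewer than 3 markers each of lymphoid, epithelial, fibroblast and endothelial cells. No doublets were removed in the values given. As an alternative the highest Scrublet scores were removed, 43 WT and 55 knockout cells. No test was run, since each genotype had 1 library. The ratio code was tested on simulated data.

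All measured members are named. Of 2 lists of related genes, the 2 with the highest and the 2 with the lowest ratio are named, and for each member with a mean of at least 10 CPM the 3 genes with the most similar profile. Symbols come from the deposited gene tables and coordinates from GENCODE M21. No run of 50 bases in the last 400 bases of a member's transcripts was shared with another member. For Clec4a2, 6.37% of these runs were shared with Clec4a4 and 4.29% with Clec4b1, and the effect on its counts was not measured. Python 3.11.15, NumPy 2.4.6, SciPy 1.17.1, Scanpy 1.11.5 and Matplotlib 3.10.9 were used.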

Additional observations from a re-analysis of the deposited data

Results flagged for a closer look

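The contrast between Timd4-detected and undetected cells had the same sign in both WT lanes and the other sign in the knockout for Clec4a1 and Clec10a. For Clec4a1 the log2 ratio was 0.25 in WT and -0.0041 in the knockout, where the levels hardly differed. For Clec10a it was -0.68 in WT and 0.11 in the knockout, where the counting intervals of detected and undetected cells overlapped. With Timd4 detection taken from cells thinned to 1000 UMIs, the WT value of Clec10a was -0.03. The difference between the libraries was not tested, since each genotype had 1 library.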

How the results depend on the processing

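No value of a member past 2-fold changed its direction under any alternative, but several values within 2-fold did. With a pseudocount of 10 CPM the number of members at least 2-fold lower in the knockout was 0 in place of 1, in all cells and in Timd4-undetected cells. With thinning before grouping, 1 member in place of 0 was past 2-fold in Timd4-detected cells, the sparse Clec4d, which was then higher in the knockout. The number of members with a lower detection share in the knockout was 5 with thinning to 2000 UMIs and 7 without thinning, in place of 3. Over the Ccr2 classes, thinning to 2000 UMIs together with classes of 0, 1, 2 and 3 or more Ccr2 UMIs gave 1 member higher at each step in place of 3, 1 lower in place of 2, and 1 at least 2-fold lower in place of 2, and lane 2 alone gave 0 lower at each step. For Timd4 in WT, the number at least 2-fold lower was 2 with thinned detection and 2 with at least 2 Timd4 UMIs, and 0 among cells with 0 Ccr2 UMIs, in place of 1. The number at least 2-fold higher was 1 in place of 0 with at least 2 Timd4 UMIs and in each lane alone. The lanes did not share that member, which was the sparse Clec4d in lane 1 (log2 ratio 1.22) and Clec4n in lane 2 (1.001). The pairs below the expected number in WT were 10 with thinning to 2000 UMIs in place of 5. The cause of these changes was not tested. Over all genes the counts at least 2-fold lower and higher were 131 and 376 with a pseudocount of 10, 675 and 359 with median-of-ratios scaling, and the higher count was 437 in cells of 2000 to 4000 UMIs, 1055 against lane 2 alone and 1383 with a minimum of 1 CPM, against 231 and 669. No paired analysis was possible because each genotype had 1 library. The knockout cells were the shallower ones, and the 132 Clec12a and 26 Clec4d UMIs there limit what can be said of these genes.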
